A study of Mus musculus with 24 samples.

Results

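The genes described here are 8 members of the Kruppel-like factor family, Klf2, Klf3, Klf4, Klf6, Klf7, Klf10, Klf12 and Klf13, measured by RNA-seq in natural killer (NK) cells taken from mouse melanomas. They were chosen by name from the 17 Kruppel-like factor genes in a table of 53465 gene identifiers, with earlier results of these data known. All 8 passed the filter on low counts that left 10536 genes for testing. The cells came from B16F10 tumours, a mouse melanoma line, grown under the skin of female wild-type B6 mice and taken at day 14. NK cells were sorted into 4 populations by CD11b or CD27 and by CD69: CD11b+CD69- first, then CD11b+CD69+, then CD27+CD69- and last CD27+CD69+, with 6 libraries each and 100 cells per library. All populations share the mouse strain, the sex, the tumour and the day, and no treatment is named. The labels give tissue and cell type as tumour and melanoma, but the NK gene Ncr1 averaged between 1240 and 2630 CPM in the 4 populations, where CPM is a count divided by its TMM-scaled library size. How an NK cell was gated, and whether CD27+ cells were also selected on CD11b, is not stated in the labels.

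Kruppel-like factors are transcription factors that bind CACCC and GC-rich boxes through zinc fingers at the end of the protein. KLF2 keeps lymphocytes quiescent and drives genes for their exit from tissue into blood, KLF4 also restrains lymphocyte division, and KLF6 is an early response gene in many cells. KLF3 and KLF12 are repressors that recruit CtBP, KLF10 is induced by TGF-beta and recruits SIN3A, and KLF13 was described as an activator of the chemokine gene Ccl5 in T cells. CD27 and CD11b mark earlier and later stages of NK cell maturation in mice, and CD69 is a surface protein of activated and tissue-retained lymphocytes that removes the exit receptor S1P1 from the membrane.

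The zinc finger coding stretches are shown for Klf2, Klf4 and Klf12, whose differences between the 2 CD69- populations passed 1.5 on the log2 scale in either direction. Klf2 lies at chr8:72319033-72321656 on the + strand, Klf4 at chr4:55527143-55532466 and Klf12 at chr14:99870632-100284679 on the - strand (GRCm38). Each stretch runs 5' to 3' over 243 bases of a GENCODE transcript, and capitals mark the 12 codons for the cysteines and histidines that hold zinc.
Klf2: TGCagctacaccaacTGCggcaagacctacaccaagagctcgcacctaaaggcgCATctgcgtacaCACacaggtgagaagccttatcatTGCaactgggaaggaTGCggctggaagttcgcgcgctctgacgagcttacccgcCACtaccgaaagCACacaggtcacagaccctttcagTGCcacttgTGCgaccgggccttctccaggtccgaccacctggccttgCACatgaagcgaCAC
Klf4: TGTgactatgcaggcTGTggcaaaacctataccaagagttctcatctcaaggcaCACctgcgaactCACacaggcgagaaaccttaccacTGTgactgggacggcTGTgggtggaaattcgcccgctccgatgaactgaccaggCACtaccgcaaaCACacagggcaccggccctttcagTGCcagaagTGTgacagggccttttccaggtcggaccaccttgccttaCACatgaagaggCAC
Klf12: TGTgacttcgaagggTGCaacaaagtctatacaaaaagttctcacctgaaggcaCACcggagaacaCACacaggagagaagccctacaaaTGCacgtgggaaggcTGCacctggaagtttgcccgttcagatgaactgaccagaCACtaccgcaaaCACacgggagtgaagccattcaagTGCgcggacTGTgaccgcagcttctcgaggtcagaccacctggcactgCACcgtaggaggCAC
Klf2 and Klf4 were identical at 190 of these 243 bases, or 78.2%. Among the 28 pairs of members, Klf6 and Klf7 were closest with 81.1%, Klf3 and Klf12 matched at 78.2%, and the lowest value was 59.3%, for Klf6 with Klf10 and Klf7 with Klf13. Of the pairs with the closest fingers, Klf2 and Klf4 are set side by side below because CD27+ cells had less Klf2 and more Klf4 than CD11b+ cells in mean level.

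Library totals ran from 1213914 to 2671533 counts, with a median of 2213433, so that 3 counts corresponded to between 1.15 and 2.47 CPM. The sort markers followed their gates in mean level: Itgam, which encodes CD11b, averaged 89.7, 48.6, 12.2 and 4.92 CPM in the order of populations above, Cd27 averaged 87.9, 141, 277 and 342 CPM, and Cd69 averaged 607, 1110, 735 and 1170 CPM. The CD27+CD69- libraries stood apart. The summed level of 8 fibroblast markers was between 258 and 11000 CPM there, and at most 8.02 CPM in CD11b+CD69- and 232 CPM in CD27+CD69+ libraries, and all 8 markers were at 0 in CD11b+CD69+ libraries. Sums of 7 melanoma markers reached 5830 CPM in CD27+CD69- libraries and 59.2 CPM elsewhere, and sums of 11 macrophage markers reached 302 and 56.9 CPM. T cell markers summed to means of 1000, 1280, 2060 and 2960 CPM, and 8 of the 9 that were tested were higher in CD27+ than in CD11b+ cells in both comparisons (against 7.46% of all genes among CD69- and 0.987% among CD69+ cells). Cd4 was at or near 0 in all 4 populations. In the same order, Cd8a averaged 0.328, 0, 10.1 and 13.5 CPM, Cd6 0, 0, 26.1 and 12.7 CPM, and Trac 35.1, 50, 154 and 299 CPM. The CD3 chain gene Cd3g averaged 3.2, 39.3, 303 and 550 CPM, Cd3d 3.33, 12.3, 257 and 429 CPM, and Cd3e 0.082, 1.45, 85.8 and 139 CPM. Trbc1, a large part of the sums, averaged 807, 1010, 888 and 1070 CPM. NK cells are known to transcribe some of these genes, and the part of other cells in the results below was tested only by the covariates and left-out libraries given there. The 10 NK markers summed to means of 32500, 27200, 13200 and 16200 CPM in the same order. Without CD69, all 10 were called lower in CD27+ than in CD11b+ cells, against 4.92% of all genes. So were 11 of 20 pan-leukocyte genes. Among CD69+ cells 5 of 10 NK markers and 0 of 20 pan-leukocyte genes were lower, against 0.911% of all genes. In bulk libraries such as these, fewer cells of a type and less RNA per cell cannot be told apart.

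Which members differed between the sorted populations was asked with the quasi-likelihood test of edgeR on all 10536 genes, and each adjusted p below is its Benjamini-Hochberg value over those genes. The populations differed most in CD27+ against CD11b+ cells without CD69. There 5 of 8 members passed the test, 1 upward (Klf4) and 4 downward (Klf2, Klf6, Klf12 and Klf13), against 12.4% of all genes tested, of which 7.46% were higher and 4.92% lower. Only the Klf2 call held in all 18 alternative fits described below. Klf4 passed in 15 of them, Klf12 in 7, Klf13 in 6 and Klf6 in 5. Among CD69+ cells, 1 of 8 members was called (Klf2, lower in CD27+ cells), against 1.90% of all genes. Between CD69+ and CD69- cells, 1 of 8 members was called within CD11b+ cells (Klf2, lower), against 2.74% of all genes. Within CD27+ cells edgeR called 0 of 8, against 1.85% of all genes. Unadjusted p was under 0.05 for 2 members there (Klf2 and Klf3), and for 1154 of the 10536 genes tested. DESeq2 and limma-voom also called 0 members. The test of any difference among the 4 populations called Klf2 (adjusted p = 2.84e-10), Klf4 (0.0127) and Klf12 (0.0311), against 14.1% of all genes. The median log2 difference of the 8 members between the CD69- populations was -0.38, and that of all genes tested was 0.05. Each population enters 2 of these comparisons, which therefore share libraries. Because the members were chosen with earlier results of these data known, counts of members here and below do not test the family against all genes.

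**Figure D1:**
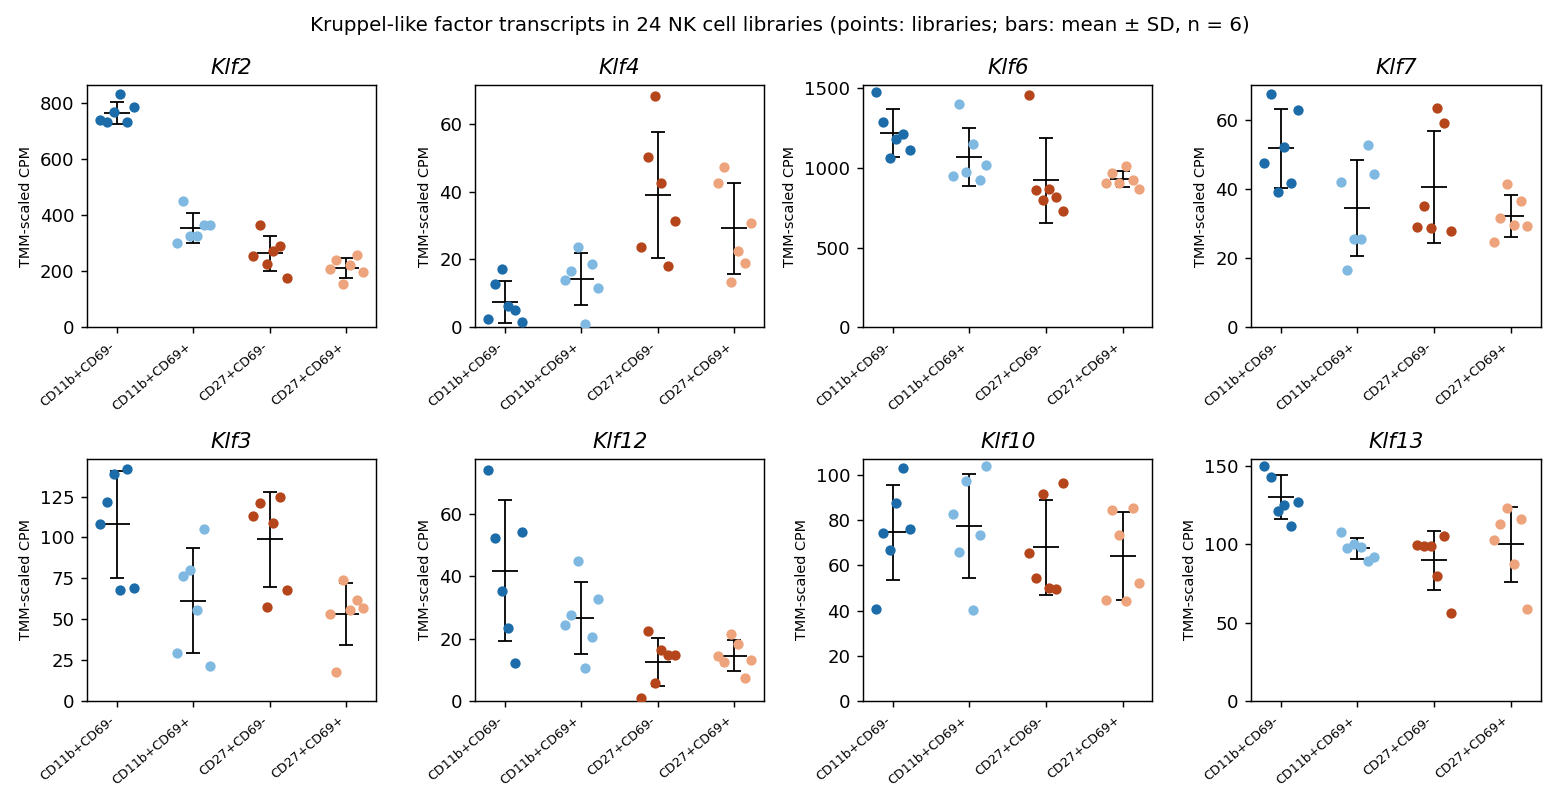
Level of each member in TMM-scaled CPM (linear axis from 0, each panel with its own scale) in the 4 sorted populations. Points are the 6 libraries of a population and black bars are the mean ± SD; Klf2 is highest and Klf4 lowest in CD11b+CD69- cells, where their means are 764 and 7.5 CPM.

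**Figure D2:**
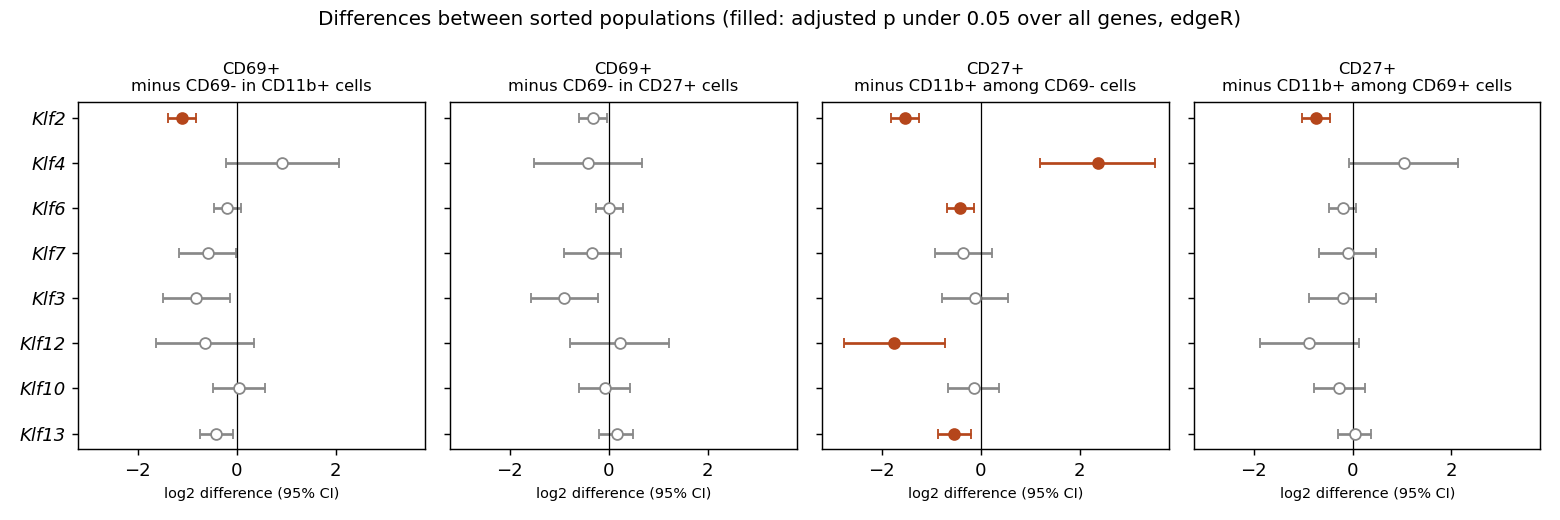
Log2 difference with its 95% confidence interval for each member in 4 comparisons, from the edgeR fit of 24 libraries. Filled points passed an adjusted p of 0.05 over all genes; Klf2 is filled in 3 of the 4 panels, and the panel of CD69- cells holds 5 filled members.

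Klf2, the regulator of quiescence and exit, passed in 3 of the 4 comparisons between populations. Its lowest, median and highest library was 733, 753 and 830 CPM in CD11b+CD69- cells and 299, 344 and 449 CPM in CD11b+CD69+ cells. In CD27+CD69- cells these values were 176, 263 and 364 CPM, and in CD27+CD69+ cells 154, 214 and 257 CPM. Every CD11b+CD69- library therefore lay above every other library, while each of the other 3 populations overlapped the next one in order. With CD69, the mean within CD11b+ cells fell from 764 ± 38 to 354 ± 52.7 CPM (SD, n = 6 each), a log2 difference of -1.11 (SE 0.14, adjusted p = 9.55e-06). Within CD27+ cells the means were 263 ± 63.4 CPM without and 212 ± 36.1 CPM with CD69, and the log2 difference of -0.32 (95% interval -0.60 to -0.03) did not pass (adjusted p = 0.345). CD27+ cells were lower than CD11b+ cells by a log2 difference of -1.53 among CD69- cells (SE 0.14, adjusted p = 2.26e-08) and of -0.74 among CD69+ cells (SE 0.14, adjusted p = 0.00211). The 3 called differences passed in all 18 alternatives tried for each. Without the 3 CD27+CD69- libraries with the most fibroblast RNA, the difference among CD69- cells was -1.49. With the fibroblast and melanoma marker sums as covariates it was -1.35 (adjusted p = 0.0282).

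Whether the CD69 difference of Klf2 itself differed between CD11b+ and CD27+ cells was tested as a difference of differences. It was 0.80 on the log2 scale (SE 0.19, 95% interval 0.40 to 1.19) with an adjusted p of 0.0505, just short of the threshold. By edgeR 0 of 8 members passed this test, against 0.579% of all genes. Unadjusted p was under 0.05 for 2 members (Klf2 and Klf13), and for 997 of the 10536 genes tested. DESeq2 called Klf2 (adjusted p = 0.0113), as did limma-voom (0.0328). The estimate was positive in all 17 alternatives, from 0.36 with scaling to pan-leukocyte genes to 0.96 without the libraries of replicate number 2, and 4 of the 17 passed.

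The Klf2 promoter is shown because MEF2 factors, known regulators of Klf2, were among the genes examined, and the Klf4 promoter is shown beside it because Klf4 differed the other way between CD27+ and CD11b+ cells without CD69. Both are RefSeq sequence on GRCm38.p6, given 5' to 3' on the gene's strand and ending before the first annotated exon. Capitals mark matches, on either strand, to the GC box GGGCGG in both promoters and to the MEF2 site in Klf2. RefSeq promoters were found for 7 of the 8 members, all but Klf10.
Klf2 promoter (chr8:72318812-72319032, + strand): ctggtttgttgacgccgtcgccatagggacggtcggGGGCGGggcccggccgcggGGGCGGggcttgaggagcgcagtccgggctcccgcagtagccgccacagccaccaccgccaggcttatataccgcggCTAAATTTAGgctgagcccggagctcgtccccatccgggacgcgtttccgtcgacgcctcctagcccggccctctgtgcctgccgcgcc
Klf4 promoter (chr4:55532476-55532725, - strand): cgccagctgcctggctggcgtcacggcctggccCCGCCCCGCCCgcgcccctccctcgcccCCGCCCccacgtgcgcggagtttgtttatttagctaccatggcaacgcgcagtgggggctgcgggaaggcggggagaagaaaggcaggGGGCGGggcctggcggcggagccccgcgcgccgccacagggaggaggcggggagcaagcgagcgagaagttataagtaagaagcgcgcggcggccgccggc
The 250 bases before the Klf2 start held 2 GC boxes and 1 MEF2 site, and those of Klf4 held 4 GC boxes, of which a pair overlap in one run. Over 27025 promoters of the same length, 32.9% held a GC box and 3.01% a MEF2 site. The boxes CACCC (51.3% of promoters) and GTAAACA, a FOXO site (3.09%), and the SRF CArG box (1.4%) were searched as well, on both strands. CACCC occurred once before the Klf2 start, in bases not printed here, and was not found in the Klf4 window. Neither window held the FOXO or CArG sequence. A match describes letters in a window and not binding.

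Of 11 genes known to act on Klf2 transcription or KLF2 protein, all were tested. Mef2d, a MEF2 factor, was the 1 of 11 that passed between the CD69- populations, against 12.4% of all genes, and none passed in the other 3 comparisons. Its mean was 90.7 ± 13.7 CPM in CD11b+CD69- cells and 56 ± 12.4 CPM in CD27+CD69- cells, a log2 difference of -0.69 (SE 0.19, adjusted p = 0.0119) with overlapping groups. The other MEF2 factors on the list, neither called, differed in direction. In these populations Mef2a averaged 119 and 84.2 CPM, and Mef2c 44.3 and 72.7 CPM. Foxo1, which activates Klf2 in T cells, averaged 63 CPM and 102 CPM in these populations, a log2 difference of 0.71 that did not pass (adjusted p = 0.0705).

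Genes of lymphocyte exit and homing, which KLF2 is known to drive in T cells or which are related to those it drives, were called in both directions. S1pr5, the S1P receptor used for exit by mature NK cells, lay in the same order as Klf2. It averaged 262 ± 75.1 CPM in CD11b+CD69- cells, 90.8 ± 35.5 CPM in CD11b+CD69+ cells, 17.6 ± 9.29 CPM in CD27+CD69- cells and 13.2 ± 9.69 CPM in CD27+CD69+ cells. It fell with CD69 in CD11b+ cells (log2 difference -1.53, adjusted p = 0.0432) and was lower in CD27+ cells among CD69- cells (-3.85, adjusted p = 1.42e-06) and CD69+ cells (-2.79, adjusted p = 0.000544). Ccr7, the homing receptor for lymph nodes, was higher in CD27+ cells in both comparisons, at means of 44.5 and 116 CPM without and with CD69, against 0.941 and 8.54 CPM in CD11b+ cells. S1pr1, a direct KLF2 target in T cells, averaged 80.9, 17, 230 and 79.2 CPM in the order of populations above. Its log2 differences with CD69 of -2.22 in CD11b+ cells (adjusted p = 0.0603) and -1.54 in CD27+ cells (adjusted p = 0.255) did not pass.

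Klf4, the second quiescence factor, was a low transcript with higher means in CD27+ than in CD11b+ cells. Its lowest, median and highest library was 1.64, 5.52 and 17.3 CPM in CD11b+CD69- cells and 0.96, 15.2 and 23.7 CPM in CD11b+CD69+ cells. In CD27+CD69- cells these values were 18, 37 and 68.1 CPM, and in CD27+CD69+ cells 13.2, 26.7 and 47.2 CPM. All 6 CD27+CD69- libraries thus lay above all 6 CD11b+CD69- libraries, the nearest at 18 against 17.3 CPM. The means of 39 ± 18.5 and 7.5 ± 6.23 CPM (SD, n = 6 each) gave a log2 difference of 2.37 (SE 0.57, adjusted p = 0.00485), a 5.17-fold higher level. Among CD69+ cells the means were 29.2 ± 13.4 CPM in CD27+ and 14.2 ± 7.73 CPM in CD11b+ cells, with a log2 difference of 1.03 (95% interval -0.08 to 2.14) that did not pass (adjusted p = 0.497). Neither CD69 comparison passed for Klf4: the log2 difference was 0.92 in CD11b+ cells (adjusted p = 0.499) and -0.41 in CD27+ cells (adjusted p = 0.909).

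Klf4 was also read beside the marker sums of other cells, and the source of its RNA was not tested. The 3 CD27+CD69- libraries with the most fibroblast RNA, at sums of 11000, 8430 and 7420 CPM, had 50.1, 68.1 and 31.3 CPM of Klf4. The remaining 3, at sums of 3420, 2990 and 258 CPM, had 42.6, 23.7 and 18 CPM. Without the former 3, the log2 difference was 1.90 and did not pass (adjusted p = 0.0931). With the fibroblast and melanoma sums as covariates it was 2.26 (adjusted p = 0.918), in a fit that called 49 genes in all where the fit without them called 1304. The T cell marker sum as a covariate gave 1.79 (adjusted p = 0.213). The other 15 of 18 alternatives passed, and all 18 were positive. In the CD27+CD69+ libraries, where the fibroblast sum was at most 232 CPM, Klf4 averaged 29.2 CPM.

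**Figure D3:**
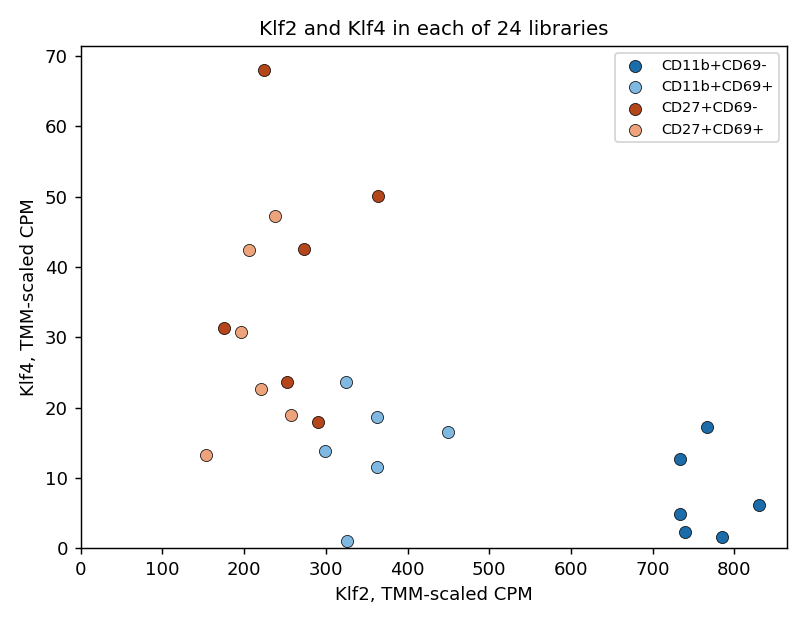
Klf2 (horizontal) against Klf4 (vertical) in TMM-scaled CPM, 1 point for each of the 24 libraries, coloured by population, on linear axes from 0. The 6 CD11b+CD69- libraries lie at 733 to 830 CPM of Klf2 and no more than 17.3 CPM of Klf4, apart from all other libraries.

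Klf6, the early response member, was the most abundant. Its lowest, median and highest library was 1060, 1190 and 1480 CPM in CD11b+CD69- cells, 922, 998 and 1400 CPM in CD11b+CD69+ cells, 731, 839 and 1460 CPM in CD27+CD69- cells and 870, 915 and 1010 CPM in CD27+CD69+ cells. The populations overlapped, in part through replicate 1 of CD27+CD69- cells at 1460 CPM, above the other 5 at 731 to 868 CPM. CD27+CD69- cells were lower than CD11b+CD69- cells by a log2 difference of -0.41 (SE 0.13, adjusted p = 0.0404). This call was the weakest of the 5, with 5 of 18 alternatives passing. It was lost without replicate number 2, 3, 4, 5 or 6, with adjusted p from 0.0945 to 0.13, and grew to -0.52 (adjusted p = 0.000988) without number 1. Klf7, the nearest relative of Klf6 in the zinc fingers and known from neurons, averaged 51.9 ± 11.5, 34.5 ± 14, 40.6 ± 16.3 and 32.3 ± 6.02 CPM in the 4 populations and passed in none of the comparisons.

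Since Klf6 is an early response gene, 15 other immediate early genes, which cell dissociation is also known to induce, were read beside it. Their summed level averaged 11700 ± 968, 8830 ± 722, 9280 ± 3070 and 7670 ± 472 CPM in the order of populations above. In CD27+CD69- cells it was 15100 CPM in replicate 1, the library with the highest Klf6 of that population, and 6310 to 9580 CPM in the other 5. In CD27+CD69- against CD11b+CD69- cells 4 of 15 were called lower and none higher, against 4.92% of all genes lower and 7.46% higher. The called genes included Ier2 (log2 difference -0.70, adjusted p = 0.000914), Jund (-0.82, adjusted p = 0.00194) and Zfp36 (-0.73, adjusted p = 0.00357). Within CD11b+ cells 3 of 15 fell with CD69, against 1.10% of all genes: Ier2, Zfp36 and Nr4a1. Within CD27+ cells 2 of 15 fell with CD69, against 1.30% of all genes: Egr1 (-1.22, adjusted p = 0.0297) and Nr4a1 (-0.96, adjusted p = 0.0437). With this sum as a covariate, the log2 difference between the CD69- populations was -0.15 for Klf6 (adjusted p = 0.567), -0.29 for Klf13 (adjusted p = 0.481) and -1.44 for Klf2 (adjusted p = 2.93e-06).

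Klf12 and Klf3 are the CtBP-recruiting repressors of the set. The lowest, median and highest Klf12 library was 12.3, 43.7 and 74 CPM in CD11b+CD69- cells, 10.6, 26 and 44.7 CPM in CD11b+CD69+ cells, 0.986, 14.7 and 22.3 CPM in CD27+CD69- cells and 7.26, 13.8 and 21.3 CPM in CD27+CD69+ cells. Libraries of all populations overlapped, and the lowest value rests on 2 counts. Klf12 was lower in CD27+CD69- than in CD11b+CD69- cells by a log2 difference of -1.75 (SE 0.50, adjusted p = 0.0182), at means of 12.4 ± 7.73 and 41.8 ± 22.6 CPM. The difference was negative in all 18 alternatives and passed in 7, and it was lost without replicate number 1, 3 or 6 (adjusted p from 0.0602 to 0.0828). Among CD69+ cells the log2 difference was -0.88 and did not pass (adjusted p = 0.538).

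Klf3 showed a different arrangement, with lower means in CD69+ cells on both backgrounds. It averaged 108 ± 32.9 CPM without and 61.2 ± 32.1 CPM with CD69 in CD11b+ cells, and 98.9 ± 28.9 and 53.2 ± 18.9 CPM in CD27+ cells. All 6 CD69+ libraries lay below the median of the CD69- libraries on each background, yet the groups overlapped. Neither log2 difference passed, at -0.82 (95% interval -1.50 to -0.14, adjusted p = 0.228) and -0.90 (95% interval -1.58 to -0.22, adjusted p = 0.217). Klf3 shares 404 exonic bases with Gm20033 on the opposite strand, which held 57 counts in all against 4065 for Klf3. Klf7 shares 3196 of its 8131 exonic bases with Gm26649, which held 0 counts. How reads over shared bases were counted is not stated, so these counts do not show whether Klf3 or Klf7 lost reads there.

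Klf13 and Klf10 are the SIN3A-binding members. The lowest, median and highest Klf13 library was 112, 126 and 150 CPM in CD11b+CD69- cells, 89.5, 97.7 and 108 CPM in CD11b+CD69+ cells, 56.1, 98.8 and 105 CPM in CD27+CD69- cells and 58.7, 108 and 123 CPM in CD27+CD69+ cells. The CD11b+CD69- libraries lay above all those of CD11b+CD69+ and of CD27+CD69- cells. The log2 difference of CD27+CD69- from CD11b+CD69- cells was -0.53 (SE 0.17, adjusted p = 0.0343), and that of CD11b+CD69+ cells was -0.41 (SE 0.17), which did not pass (adjusted p = 0.223). The called difference passed in 6 of 18 alternatives. It was lost without replicate number 1, 2, 3, 4 or 6 (adjusted p from 0.0576 to 0.112), and changed sign to 0.58 (adjusted p = 0.828) with the fibroblast and melanoma sums as covariates. Klf10 had means of 74.7 ± 21, 77.2 ± 23, 68 ± 21 and 64.1 ± 19.4 CPM and log2 differences between -0.27 and 0.05, none called. Its 95% intervals in the 4 comparisons lay between -0.79 and 0.57.

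Counted by overlap alone, the groups were apart for Klf2, Klf4 and Klf13 between the CD69- populations, 3 of 8 members against 6.62% of all genes. Klf2 and Klf13 were apart with CD69 in CD11b+ cells, 2 of 8 against 3.19%. Klf2 alone was apart between the CD69+ populations, 1 of 8 against 2.29%, and no member was apart with CD69 in CD27+ cells, where 2.11% of all genes were.

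**Figure D4:**
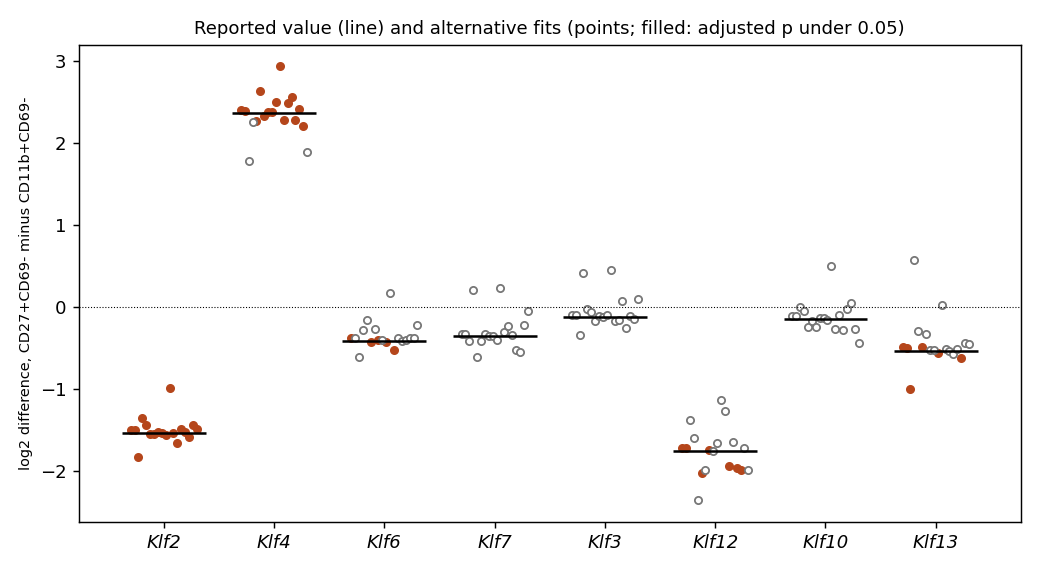
Log2 difference between CD27+CD69- and CD11b+CD69- cells for each member: the black line is the value given in the text, points are the 18 alternatives with an adjusted p, filled where it was under 0.05. Klf2 is filled throughout, Klf4 in 15 of 18, and Klf6 and Klf13 cross 0 in 1 and 2 of them.

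How the CD69- comparison is scaled bears on the smaller differences. Scaling each library to 20 pan-leukocyte genes in place of TMM moved the median of all genes in this comparison from 0.05 to 0.65, with 3424 genes called higher and 128 lower, against 786 and 518 with TMM. On that scale Klf6 stood at 0.17 and Klf13 at 0.03, both above 0 and below the median of all genes. Klf2 stood at -0.98 (adjusted p = 2.66e-06), Klf12 at -1.13 (adjusted p = 0.0849) and Klf4 at 2.94 (adjusted p = 0.000331), so that the direction of these 3 was unchanged.

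The make-up of the family's RNA differed with the populations. The 8 members summed to 2400 ± 147 CPM in CD11b+CD69- cells, 1735 ± 211 CPM in CD11b+CD69+ cells, 1534 ± 284 CPM in CD27+CD69- cells and 1437 ± 81.6 CPM in CD27+CD69+ cells (SD, n = 6 each). The lowest CD11b+CD69- library, at 2242 CPM, was above the highest of the others, at 2150 CPM. Klf2 made up 32% ± 2.90 of this sum in CD11b+CD69- cells and 20.4% ± 1.26, 17.3% ± 3.65 and 14.7% ± 2.05 in the other populations, while Klf6 made up 50.8% ± 3.06, 61.5% ± 4.20, 59.5% ± 6.34 and 64.9% ± 2.29. The share of Klf2 in CD11b+CD69- cells, at least 28%, did not overlap that in any other population, at most 22.7%. Klf4 made up 0.318% ± 0.274 of the sum in CD11b+CD69- cells and 2.65% ± 1.41 in CD27+CD69- cells. These shares are of counts and not of molecules. Per kilobase of annotated exon, Klf6 and Klf2 averaged 237 and 215 CPM per kb over all libraries, followed by Klf10 at 17, Klf13 at 13.8, Klf4 at 7.38, Klf3 at 7.14, Klf7 at 4.89 and Klf12 at 3.42 CPM per kb. In CD11b+CD69- cells the per-length level of Klf2 was 414 and that of Klf6 278 CPM per kb, and in CD27+CD69+ cells they were 115 and 212 CPM per kb.

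**Figure D5:**
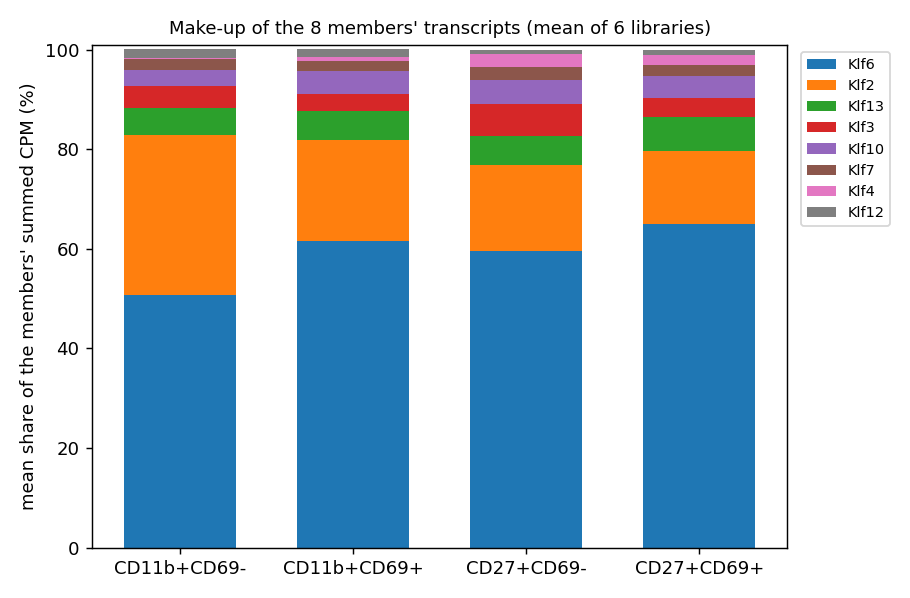
Mean share of each member in the summed CPM of the 8 members, in percent, for the 4 populations (bars from 0, mean of 6 libraries, no error shown). Klf6 and Klf2 fill most of each bar, and Klf2 takes 32% in CD11b+CD69- cells and 14.7% in CD27+CD69+ cells.

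The remaining 9 Kruppel-like factors were scarce. Klf11, a relative of Klf10, averaged 11.1 CPM and Klf9, a relative of Klf13, 8.99 CPM over all libraries; both were tested and passed in none of the comparisons. Klf8, Klf16, Klf5 and Klf15 averaged 1.89, 1.71, 0.842 and 0.383 CPM, near the level of 3 counts. Klf1 had 2 counts in all libraries together, Klf14 had 1 and Klf17 had 0, which allows up to 3 counts, or 1.15 to 2.47 CPM in a library. Of the 9 related Sp factors 4 were tested, Sp1 and Sp3 among them, and none passed in any comparison.

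Partners and targets of single members were read from the same fit. Of 5 genes listed as targets, 1 was higher and 1 lower between the CD69- populations, against 7.46% and 4.92% of all genes. With CD69 in CD11b+ cells 1 of 5 was lower, against 1.10%, as was 1 of 5 in CD27+ cells among CD69+ cells, against 0.911%. With CD69 in CD27+ cells 0 of 5 passed. The only listed targets that passed were Ccl5 and Lgals3. Ccl5, the gene KLF13 was described to activate in T cells, was itself ordered as Klf2 was, at 5970 ± 257, 3030 ± 384, 1880 ± 437 and 1510 ± 243 CPM in the order of populations above. Ccl5 fell with CD69 in CD11b+ cells (log2 difference -0.98, adjusted p = 2.04e-05) and was lower in CD27+ cells among CD69- cells (-1.67, adjusted p = 1.16e-09) and CD69+ cells (-1.0, adjusted p = 1.57e-05). Lgals3, a reported target of KLF3, was higher in CD27+CD69- than in CD11b+CD69- cells (log2 difference 2.82, adjusted p = 0.00324), with libraries spread from 92.7 to 1800 CPM, and macrophages and tumour cells are known to express it too. Of 9 genes of TGF-beta signalling, which induces Klf10, 1 rose and 1 fell between the CD69- populations, where 7.46% of all genes were higher and 4.92% lower: Tgfbr2, a receptor chain, by 1.44 (adjusted p = 0.00113) and Smad3, a signal carrier, by -1.0 (adjusted p = 0.012). Of 10 corepressors and acetyltransferases that bind Kruppel-like factors, 1 rose and 1 fell against the same shares of all genes: Hdac2 rose by 1.03 (adjusted p = 0.000984) and Ep300 fell by 1.15 (adjusted p = 0.00897) on the log2 scale in that comparison, and none passed in the other comparisons between populations. The CtBP and SIN3 genes passed in none.

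For each member, the 2 genes most like it were those with the highest Pearson correlation of log2 CPM over the 24 libraries, among 7983 genes with a mean of at least 10 CPM. The libraries share 4 populations and their depth, so these values describe order over populations as much as likeness within them, and carry no test. Klf2 was most like Ccl5 (r = 0.96, Spearman's rho = 0.91) and Metrnl (r = 0.94, rho = 0.93), and Klf4 most like Slco3a1 (r = 0.77, rho = 0.73) and Slfn1 (r = 0.75, rho = 0.70). For Klf13 these genes were Ifitm10 (r = 0.83, rho = 0.60) and Nfil3 (r = 0.82, rho = 0.65), and for Klf6 Nelfb (r = 0.80, rho = 0.79) and Miip (r = 0.80, rho = 0.81). Klf12 was most like Trappc6b (r = 0.79) and Fcho2 (r = 0.76), Klf7 most like Disp1 (r = 0.76) and Elf4 (r = 0.74), Klf3 most like Fam117a (r = 0.72) and Chd3 (r = 0.70), and Klf10 most like Gpat4 (r = 0.66) and Dpp9 (r = 0.65). By r, Klf2 had closer matches than any other member. The r of a member also depends on its counts, from 1114 for Klf4 to 52951 for Klf6, and on how far its population means lay apart. Between members, Klf2 and Klf4 had r = -0.61 over the 24 libraries and 0.15 once each population's mean was taken out, and Klf2 and Klf6 had r = 0.64 and 0.27. The negative value was thus not seen within populations. With CD69 in CD27+ cells both means were lower, 212 against 263 CPM for Klf2 and 29.2 against 39 CPM for Klf4.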

How the data were processed

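RNA was measured in 24 libraries of 100 sorted NK cells, made with the SMART-Seq v4 kit and Nextera XT per the labels' protocols, a chemistry without strand information or molecular identifiers. The authors deposited raw counts per gene. The submitters' processing notes name HTSeq, Picard and GRCm38. Aligner, annotation release and strand handling remain not given in the sources used here. Counts of genes without a symbol made up 0.174% of the total and stayed in the tests. Replicate libraries differed beyond counting error (chi-square per degree of freedom 10.3 to 32.3 over 60 pairs). The titles number them M1 to M6 in each population, and what M marks, a mouse or something else, is not stated: the p-values reflect spread among libraries, which may be technical. Floors cover counting error only.

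Groups were taken from the titles. Genes were kept by filterByExpr (minimum count 10) in edgeR 4.0.16 (R 4.3.3), scaled by TMM (factors 0.958 to 1.06) and tested in 1 robust quasi-likelihood fit of 4 means to 24 libraries, with 5 contrasts and a Benjamini-Hochberg threshold of 0.05 over 10536 genes. The script was tested on simulated data. Levels are CPM on TMM-scaled library sizes, and log2 CPM used a prior count of 2. Alternatives used DESeq2 1.42.0, limma-voom 3.58.1, exact permutation, other scaling, no filter, marker covariates, a replicate block and left-out libraries; the T cell and immediate early covariates and the removal of 3 libraries were chosen after seeing the data. Positions and exon lengths came from GENCODE M21, promoters from RefSeq.

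The members and gene lists were chosen with earlier results of these data known. Named genes were the 8 members, the other Kruppel-like factors by level, the sort markers, up to 3 genes of each described list (those of smallest p), and the 2 genes most like each member. Further MEF2 factors and T cell markers were named by level. A summary of the exit and homing list is not reported here. B cell, neutrophil and dendritic cell markers summed to at most 18.3, 1.02 and 51 CPM in any library, endothelial markers to means of 50.5 to 146 CPM, and 10 NK markers to means of 13200 to 32500 CPM.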

Additional observations from a re-analysis of the deposited data

Results flagged for a closer look

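Among 32 sets of 6 libraries (8 members in 4 populations), 1 library stood far from the others of its population. Klf6 was 1460 CPM in replicate 1 of CD27+CD69- cells, and the gap to the next library was 0.811 of the range of the 6, above Dixon's critical value for 6 values. The sum of 15 immediate early genes was also highest there in its population, at 15100 CPM against 6310 to 9580 CPM in the other 5. Chance marks about 1 in 20 such sets.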

How the results depend on the processing

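Over 40 member results, 744 alternative values were computed: 633 kept direction and side of the threshold, 36 lost the threshold, 11 gained it and 64 changed sign. Of those 64, 3 belonged to called differences (Klf6 and Klf13 among CD69- cells) and 61 to differences that had not passed, and 0 passed with the other sign. With 6 against 6 libraries the smallest exact permutation p is 0.00216.

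Sign changes are given with the reported log2 difference in parentheses, and "the 3 libraries" are the CD27+CD69- libraries with the most fibroblast RNA. Among CD69- cells, Klf3 (-0.12) was 0.42 with the fibroblast and melanoma covariates, 0.45 with pan-leukocyte scaling, 0.10 without the 3 libraries and -0.25 to 0.08 without 1 replicate number. Klf6 (-0.41) was 0.17 with pan-leukocyte scaling. Klf7 (-0.35) was 0.21 with the fibroblast and melanoma covariates and 0.23 with pan-leukocyte scaling. Klf10 (-0.14) was 0.50 with pan-leukocyte scaling and -0.28 to 0.05 without 1 replicate number. Klf13 (-0.53) was 0.58 with the fibroblast and melanoma covariates and 0.03 with pan-leukocyte scaling. Among CD69+ cells, Klf3 (-0.20) was -0.40 to 0.05 without 1 replicate number. Klf7 (-0.10) was 0.01 with the fibroblast and melanoma covariates, 0.03 with pan-leukocyte scaling and -0.26 to 0.03 without 1 replicate number. Klf13 (0.04) was -0.52 with the T cell covariate and -0.03 to 0.14 without 1 replicate number. With CD69 in CD11b+ cells, Klf6 (-0.19) was 0.11 with the immediate early covariate. Klf10 (0.05) was -0.06 with the immediate early covariate and -0.10 to 0.23 without 1 replicate number. With CD69 in CD27+ cells, Klf4 (-0.41) was 0.06 without the 3 libraries. Klf6 (0.01) was -0.01 with DESeq2 and RLE scaling, -0.09 with the fibroblast and melanoma covariates and the T cell covariate, -0.12 with the macrophage covariate, 0 with no filter and only the 2 populations compared, -0.29 with pan-leukocyte scaling, -0.17 without the 3 libraries and -0.03 to 0.20 without 1 replicate number. Klf10 (-0.08) was 0.04 with the macrophage covariate, 0.22 without the 3 libraries and -0.26 to 0.09 without 1 replicate number. Klf12 (0.22) was -0.12 with pan-leukocyte scaling and -0.07 to 0.51 without 1 replicate number. Klf13 (0.16) was -0.80 with the fibroblast and melanoma covariates, -0.04 with the macrophage covariate, -0.13 with pan-leukocyte scaling and -0.09 with the T cell covariate. In the difference of CD69 differences, Klf3 (-0.08) was 0.01 with the replicate block and -0.31 to 0.20 without 1 replicate number. Klf6 (0.21) was -0.25 with pan-leukocyte scaling. Klf7 (0.26) was -0.21 with the fibroblast and melanoma covariates, -0.20 with pan-leukocyte scaling, -0.06 without the 3 libraries and -0.01 to 0.57 without 1 replicate number. Klf10 (-0.13) was 0.17 without the 3 libraries and -0.43 to 0.14 without 1 replicate number. Klf13 (0.57) was -0.38 with the fibroblast and melanoma covariates.

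Members called among CD69- cells (5) numbered 1 with fibroblast and melanoma covariates, 1 without the 3 libraries richest in fibroblast RNA, 2 with the immediate early, macrophage or T cell covariate, 2 with only the 2 populations compared, 2 with pan-leukocyte scaling, and 2 to 4 without 1 replicate number. For CD69 in CD27+ cells (0) pan-leukocyte scaling called 2, Klf2 at -0.60 and Klf3 at -1.19. For the difference of CD69 differences (0), DESeq2, limma-voom and the replicate block each called 1, Klf2, and leaving out 1 replicate number called 0 to 1.

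Genes called among CD69- cells (1304) numbered 49 with fibroblast and melanoma covariates, 761 with the immediate early covariate and 3552 with pan-leukocyte scaling. Among CD69+ cells (200) DESeq2 called 316, and leaving out 1 replicate number called 115 to 188. For CD69 in CD11b+ cells (289: 173 higher, 116 lower) DESeq2 called 483, no filter 188, leaving out 1 replicate number 183 to 256, and pan-leukocyte scaling 286 higher and 68 lower. For CD69 in CD27+ cells (195: 58 higher, 137 lower) the counts were 0 with fibroblast and melanoma covariates, 307 with the immediate early, 102 with the macrophage and 80 with the T cell covariate, 293 with limma-voom, 405 without a filter, 413 with pan-leukocyte scaling (15 higher, 398 lower), 66 without the 3 fibroblast-rich libraries and 106 to 252 without 1 replicate number. For the difference of CD69 differences (61: 25 higher, 36 lower) they were 169 with DESeq2, 1 with fibroblast and melanoma covariates, 31 with the macrophage covariate, 230 with pan-leukocyte scaling (3 higher, 227 lower), 19 without the 3 fibroblast-rich libraries and 17 to 51 without 1 replicate number. Pan-leukocyte scaling moved the median of all genes to 0.15, -0.33, 0.65, 0.14 and -0.51 in the 5 comparisons. The cause of these shifts was not tested.

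Pairing of the libraries by replicate number was not seen in these values, which cannot exclude it. Same-numbered libraries of different populations had correlated deviations of -0.03 to 0.21 over 36 pairs, and 1 was above 0.1. That pair was number 6 of the CD27+CD69- and CD27+CD69+ populations. Of 24 libraries, 0 matched their own number best in every other population. Because replicate libraries differed beyond counting error, low correlations can also arise where libraries share a mouse. With the replicate block, Klf12 among CD69- cells missed the threshold (-1.65, adjusted p = 0.0525) and the Klf2 difference of CD69 differences passed it (0.82, adjusted p = 0.0249), and no other member call changed. Depth limits Klf4 and Klf12, with as few as 2 counts in a library.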
